A study of Mus musculus with 4 samples.

Results

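Aminoacyl-tRNA synthetases are the enzymes that join each amino acid to its tRNA, and the 36 genes described here encode most of the mouse set. They were taken by gene symbol from tables of 35522 genes: 20 genes of the cytosolic enzymes, and 16 genes of the mitochondrial enzymes, whose symbols end in 2. All 36 were found and all 36 had enough reads to be tested. RNA came from livers 24 h after diethylnitrosamine (DEN), a carcinogen that liver enzymes turn into a DNA-alkylating agent. Livers labelled Dph1 KO (n = 2) were compared with livers labelled Control (n = 2), and strain C57BL/6 and DEN were common to both genotypes. Dph1 encodes an enzyme needed for diphthamide, a modified histidine of the elongation factor eEF2. The labels name no allele, Cre line, sex or age, and no liver without DEN was analysed here. Whether each library is a separate animal is not stated, so the spread behind each p-value is that of these libraries alone and may be technical.

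Each cytosolic enzyme charges the tRNAs that supply ribosomes in the cytoplasm, and 8 of these enzymes sit with 3 scaffold proteins in the multisynthetase complex. The mitochondrial enzymes come from separate nuclear genes and charge tRNAs encoded by the mitochondrial genome. Gars and Kars are exceptions, since each encodes both the cytosolic and the mitochondrial form. When tRNAs lack their amino acid, the kinase GCN2 phosphorylates eIF2 alpha, and the transcription factor ATF4 then raises many cytosolic synthetase genes through a DNA element called CARE. In liver, which exports most plasma proteins, charged tRNAs feed a large and steady protein synthesis.

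The libraries held 20410978 and 21137358 reads in genes for Dph1 KO and 19474596 and 20355790 for Control. Dph1 stood at 17.8 and 31.5 CPM in Dph1 KO livers, against 70.3 and 68.3 CPM in Control livers, with a log2 fold change of -1.49 (SE 0.26; edgeR adjusted p = 0.0107). CPM here are scaled read counts divided by library totals after TMM scaling, which corrects library totals for differences in composition. Markers of hepatocytes summed to 90646 and 89533 TPM in Dph1 KO and 75731 and 82330 TPM in Control. These TPM lack the TMM scaling used for the calls. In edgeR the median log2 fold change of the 7 markers was -0.02, and none of the 7 was called. Markers of other liver cells summed to far lower levels: the Kupffer list to 228 and 279 TPM in Dph1 KO and 294 and 270 TPM in Control, and the lists for bile duct, endothelial, stellate, lymphocyte and neutrophil cells to between 3.05 and 120 TPM in any library. No marker was at 0 in any library. Among the markers tested, edgeR called Cd68, Des, Col1a1 and Cd79a lower and none higher, while 7.47% of all genes tested were called lower. Their lists went both ways. Log2 fold changes were positive for 4 and negative for 4 Kupffer markers, and for 2 and 2 lymphocyte markers. They were positive for 2 stellate markers, up to 0.84, and negative for 5. The bile duct list leaned lower, with 1 positive and 5 negative values and a median of -0.83, and edgeR called 0 of its 6 markers. Endothelial markers had 3 positive and 4 negative values. The part of these cell types in the results below was not tested.

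The cytosolic genes were expressed at a median of 34.0 TPM and the mitochondrial genes at a median of 14.2 TPM, by the mean of the authors' deposited TPM over the 4 libraries. TPM allow for transcript length, so they are used here to compare levels between genes. Among cytosolic genes, Kars, for lysine, was highest at 75.0 TPM, followed by Aars, for alanine, at 62.8 TPM and Gars, for glycine, at 62.6 TPM. Lars, for leucine, was lowest at 10.8 TPM. The ranges of the 3 leading genes over the 4 libraries overlapped, and Lars lay below Kars in every library. Among mitochondrial genes, the leucine enzyme gene Lars2 was listed highest at 70.4 TPM, Iars2, for isoleucine, followed at 24.0 TPM, and Wars2, for tryptophan, was lowest at 0.812 TPM. Reads per library ranged from 47 to 4245 over the 36 genes.

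**Figure D1:**
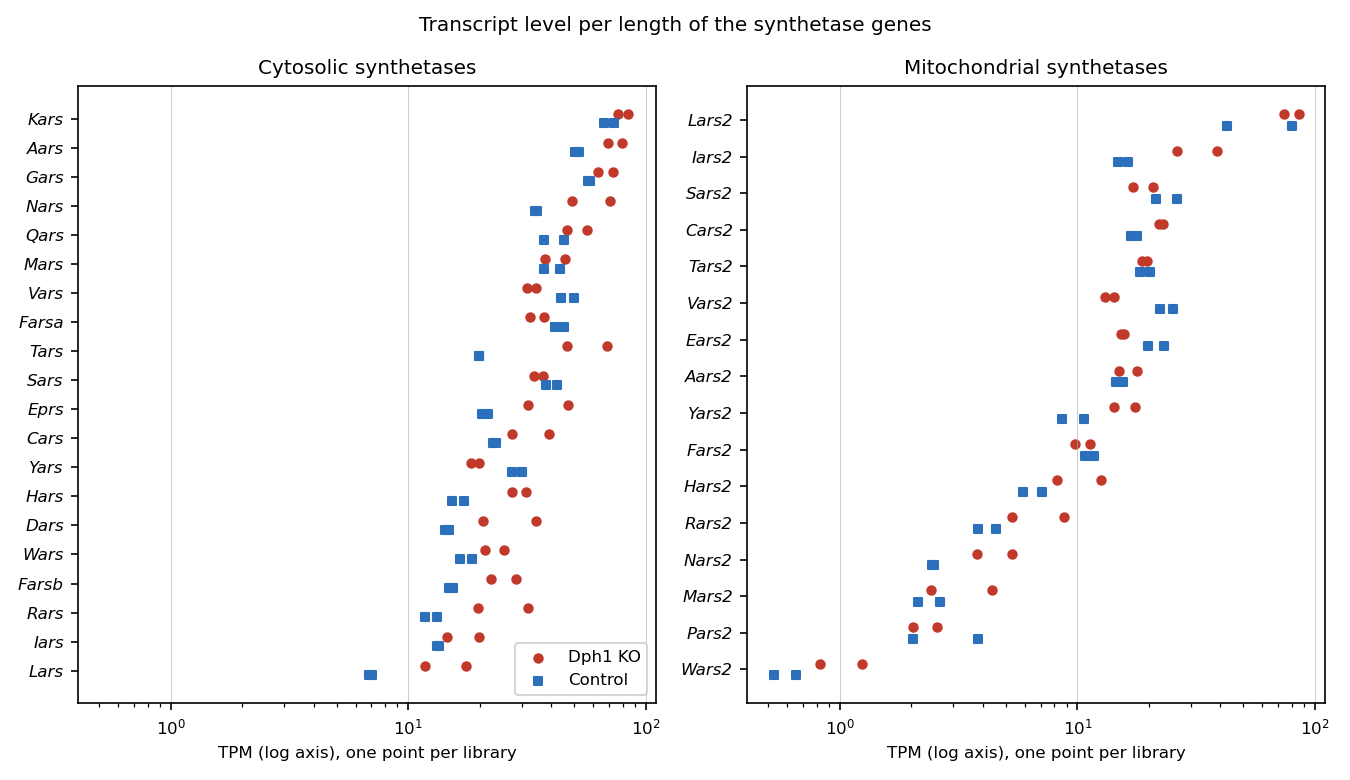
Transcript level in TPM on a log axis for each cytosolic (left panel) and mitochondrial (right panel) synthetase gene, with 1 point per library, Dph1 KO as circles and Control as squares. Cytosolic genes lie mostly between 10 and 80 TPM, while mitochondrial genes reach from below 1 TPM for Wars2 to 70.4 TPM on average for Lars2. TPM are not TMM-scaled, so the panels compare genes rather than genotypes.

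Lars2 differs from the rest in how its reads arise. Only 2.56% of its exon reads crossed an exon junction, although the gene has 21 annotated exons, while 33 other genes of the set had 16.9% to 84.6%. The remaining low values were those of Mars2, with 1 exon, and Pars2. Of the Lars2 reads, 84.8% matched a single place, against 97.9% or more for each of the other 35 genes. Lars2 had 132 and 188 CPM in Dph1 KO livers and 198 and 116 CPM in Control livers, so the genotypes overlapped. Counted by junction reads alone it had 114 and 85 reads in Dph1 KO and 61 and 69 in Control, which edgeR did not call (log2 fold change 0.35, SE 0.27, adjusted p = 0.372). Its listed level is therefore uncertain as a measure of the spliced mRNA.

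Of the 20 cytosolic genes, 1 rose and 2 fell in Dph1 KO livers, and of the 16 mitochondrial genes, 2 fell (adjusted p under 0.05 in the quasi-likelihood test of edgeR, with the Benjamini-Hochberg method over 13303 genes). In this comparison 12.3% of all genes tested were called, with 4.86% higher and 7.47% lower, so the members were called about as often as other genes. The 0 rises among mitochondrial genes from edgeR compare with 1 gene, Iars2, when p is left unadjusted at the same threshold and with 0 from DESeq2. The median log2 fold change was 0.07 for cytosolic genes, 0.06 for mitochondrial genes and 0.04 for all genes tested. Both libraries of 1 genotype lay on the same side of both libraries of the other for 15 of 20 cytosolic and 12 of 16 mitochondrial genes, against 67.4% of all genes tested. The gene that rose was Tars. Those that fell were Yars, Vars, Vars2 and Ears2, so both the cytosolic and the mitochondrial valine enzyme genes were lower. In whole liver, fewer cells of a type and less RNA per cell cannot be told apart.

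**Figure D2:**
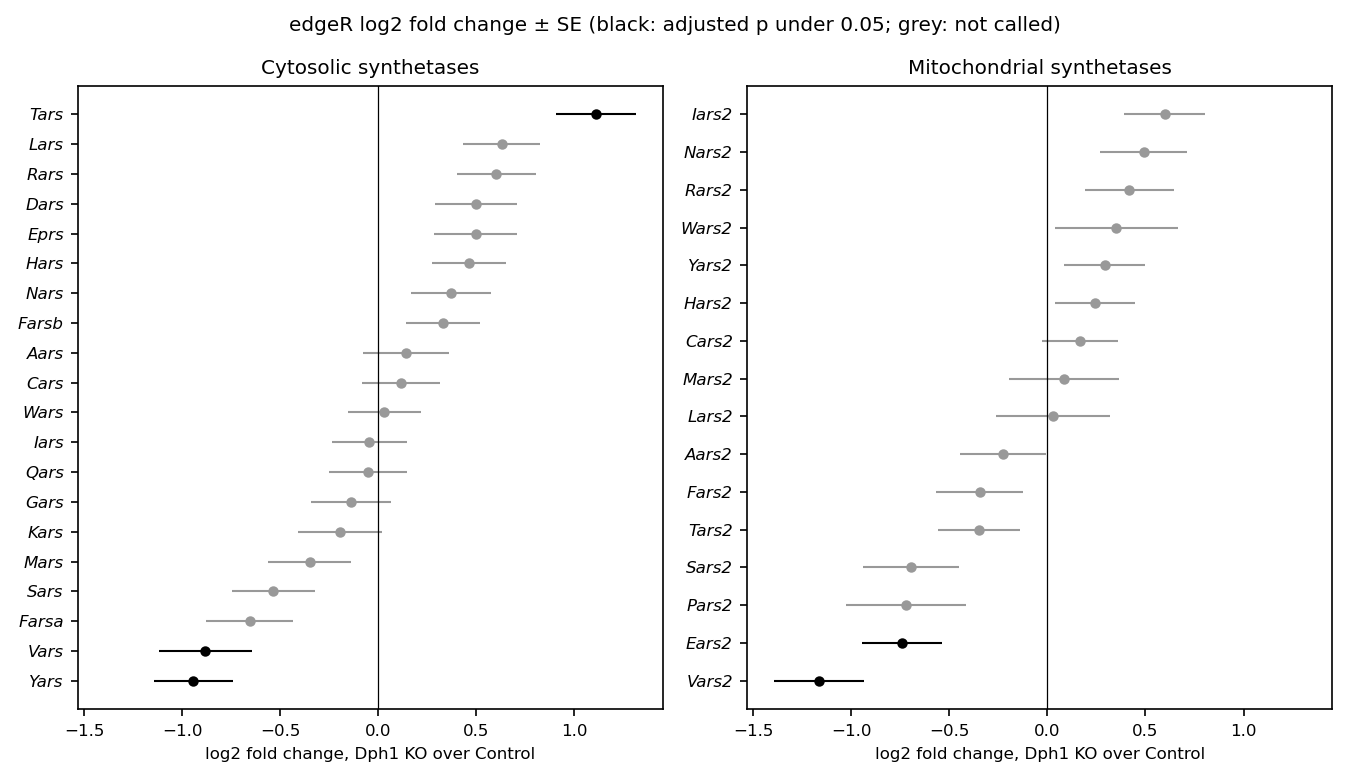
The log2 fold change of Dph1 KO over Control with its SE, from edgeR, for cytosolic (left panel) and mitochondrial (right panel) genes ordered by value. Black points passed an adjusted p of 0.05, with Tars at 1.11 the highest and Vars2 at -1.17 the lowest, and grey points did not.

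Tars encodes the cytosolic enzyme that charges threonine tRNA (gene ID 110960; GRCm38 chromosome 15, 11383663 to 11399658, minus strand). It had 84.0 and 70.4 CPM in Dph1 KO livers, against 34.2 and 37.4 CPM in Control livers. Both Dph1 KO values were well above both Control values. The means were 77.2 ± 9.62 CPM in Dph1 KO and 35.8 ± 2.24 CPM in Control (SD, n = 2 each), a 2.16-fold difference, which on the log2 scale was 1.11 (SE 0.21; adjusted p = 0.0129 in edgeR). With an offset for transcript GC content and length, described below, it was 0.92 (SE 0.14) and again called. Leaving out 1 library gave 1.00 to 1.25, and the call was lost without Control replicate 1 (edgeR adjusted p = 0.0923) and without Control replicate 2 (adjusted p = 0.0647).

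Yars encodes the cytosolic tyrosine enzyme (gene ID 107271; chromosome 4, 129189795 to 129219607, plus strand). It had 27.3 and 31.7 CPM in Dph1 KO livers, against 52.3 and 61.2 CPM in Control livers, with no overlap. Its log2 fold change was -0.94 (SE 0.20; edgeR adjusted p = 0.0210), or -0.77 with the GC offset, where it was again called. The call was lost without Control replicate 2 (edgeR adjusted p = 0.162). Yars shares 30 bases at 1 end with C77080 on the opposite strand, and no source used here says whether the counting used strand.

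Vars and Vars2, for cytosolic and mitochondrial valine charging, both lie on chromosome 17, at 35000907 to 35016329 and at 35655634 to 35667592. Vars had 60.9 and 83.3 CPM in Dph1 KO livers, against 119 and 147 CPM in Control livers, and its log2 fold change was -0.88 (SE 0.24; edgeR adjusted p = 0.0397). Vars2 had 26.7 and 36.4 CPM in Dph1 KO livers, against 62.8 and 78.7 CPM in Control livers, and its log2 fold change was -1.17 (SE 0.23; edgeR adjusted p = 0.0161). For both genes each Dph1 KO library was below each Control library, and replicate 1 was the lower of the Dph1 KO libraries. Their transcripts are rich in G and C, at 60.9% and 58.6%. With the GC offset Vars fell short of the threshold (log2 fold change -0.33, edgeR adjusted p = 0.174), while Vars2 was again called at -0.72 (adjusted p = 0.0184). Without Control replicate 2 neither was called by edgeR (adjusted p = 0.295 for Vars and 0.0788 for Vars2), and Vars was also lost without Dph1 KO replicate 1 (0.0513) and without Control replicate 1 (0.0780).

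Ears2 encodes the mitochondrial glutamate enzyme, which also takes part in making mitochondrial glutamine tRNA (gene ID 67417; chromosome 7, 122038821 to 122067063). It had 14.6 and 18.5 CPM in Dph1 KO livers, against 28.8 and 26.6 CPM in Control livers. Its log2 fold change was -0.74 (SE 0.20; edgeR adjusted p = 0.0426), and -0.64 with the GC offset (adjusted p = 0.0282). The call was kept without Dph1 KO replicate 2 and lost without each of the other 3 libraries (edgeR adjusted p from 0.0648 to 0.228), and with library totals as the only scaling (adjusted p = 0.121).

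**Figure D3:**
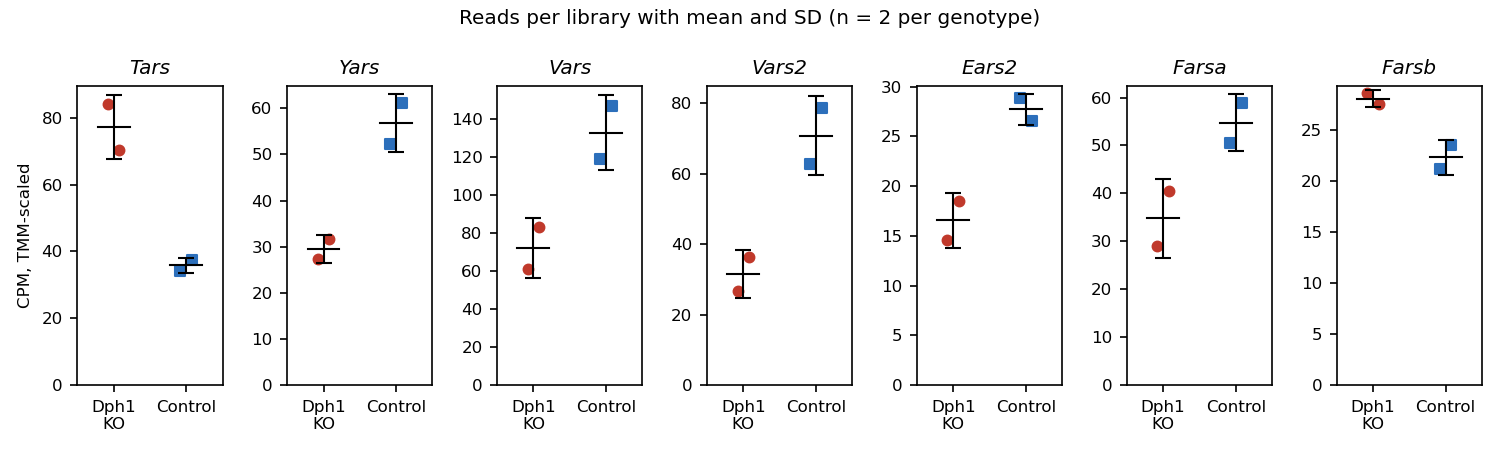
TMM-scaled CPM in each library (points) with mean and SD (n = 2 per genotype) for the 5 called genes and for Farsa and Farsb, with Dph1 KO left of Control in each panel. Tars and Farsb have both Dph1 KO points above both Control points, and the other 5 genes have both below.

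The windows from 250 bases before to 50 bases after the annotated start were matched in RefSeq (GRCm38.p6) for 27 of the 36 genes, 13 cytosolic and 14 mitochondrial. Cars, Hars, Lars, Nars, Rars, Vars, Wars, Hars2 and Pars2 had no window and were not searched. CARE was searched as TGATGNAA on both strands, where N is any base. It was found in 5 of the 13 cytosolic windows (Aars, Gars, Iars, Tars and Yars) and in 0 of the 14 mitochondrial windows, while 3.97% of 32851 mouse promoter windows of the same length held it. Tars, which rose, and Yars, which fell, both hold it, 15 bases before and 3 bases after the start of the RefSeq window. That start is the gene start given above for Tars but lies inside the gene coordinates given above for Yars, and for Aars it lies outside the gene as the authors' tables bound it. The windows of these 2 genes and of Vars2 are shown as called genes with and without the element, 5′ to 3′ on the gene's strand, with CARE matches in capitals.
Tars, chr15:11399609-11399908, minus strand: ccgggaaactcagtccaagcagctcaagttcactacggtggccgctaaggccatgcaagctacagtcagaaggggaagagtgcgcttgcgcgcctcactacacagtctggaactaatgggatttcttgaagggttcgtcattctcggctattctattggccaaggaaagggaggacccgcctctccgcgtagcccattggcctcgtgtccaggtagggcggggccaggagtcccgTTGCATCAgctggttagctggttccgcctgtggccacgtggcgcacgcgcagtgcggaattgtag
Yars, chr4:129189653-129189952, plus strand: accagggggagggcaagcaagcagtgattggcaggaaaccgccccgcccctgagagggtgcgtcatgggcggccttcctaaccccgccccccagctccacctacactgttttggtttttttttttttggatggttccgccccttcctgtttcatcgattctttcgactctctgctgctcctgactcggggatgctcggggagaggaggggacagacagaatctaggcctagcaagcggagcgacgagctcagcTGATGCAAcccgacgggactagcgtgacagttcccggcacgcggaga
Vars2, chr17:35667543-35667842, minus strand: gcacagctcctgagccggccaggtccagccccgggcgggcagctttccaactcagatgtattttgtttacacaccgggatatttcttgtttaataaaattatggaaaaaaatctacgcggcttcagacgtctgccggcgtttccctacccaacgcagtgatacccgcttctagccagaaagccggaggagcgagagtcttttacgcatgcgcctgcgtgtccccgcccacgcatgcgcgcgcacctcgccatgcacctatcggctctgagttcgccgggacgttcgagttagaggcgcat
The 4 other matches, in genes that were not called, are shown with 26 bases on each side so that the cores can be compared.
Aars, chr8:111033704-111033763, plus strand: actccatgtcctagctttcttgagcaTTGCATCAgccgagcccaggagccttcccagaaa
Aars, chr8:111033825-111033884, plus strand: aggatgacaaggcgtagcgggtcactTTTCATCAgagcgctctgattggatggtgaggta
Gars, chr6:55037945-55038004, plus strand: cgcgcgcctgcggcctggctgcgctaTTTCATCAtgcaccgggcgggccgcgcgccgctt
Iars, chr13:49682111-49682170, plus strand: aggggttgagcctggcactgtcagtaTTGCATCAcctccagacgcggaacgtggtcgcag
Tars, Iars and the upstream match of Aars share the letters TTGCATCA, which Yars holds on the opposite strand as TGATGCAA. Aars, Gars and Iars had log2 fold changes of 0.14, -0.14 and -0.05 and were not called by edgeR (adjusted p = 0.672, 0.646 and 0.883). The 5 genes with the element therefore held 1 rise, 1 fall and 3 genes that did not pass the test. Vars, which also fell, is outside this count because it had no window. An E-box, CACGTG, was in 4 of 13 cytosolic and 1 of 14 mitochondrial windows and in 7.15% of all windows. The NRF1 motif, GCGC then any base then TGCGC, was in 3 and 2 windows and in 4.6% of all. The ETS motif CCGGAAGT was in 2 and 1 windows and in 3.89% of all. No match overlapped another in these windows. A match is a run of letters and does not show binding.

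None of the 8 enzyme genes of the multisynthetase complex was called by edgeR, and DESeq2 called 0. An unadjusted edgeR p under 0.05 was reached by 4 higher genes and 0 lower ones. Of the 13303 genes tested, 2168 higher and 2381 lower ones reached it, 34.2% in all. With library totals as the only scaling, edgeR called 4 of the 8 higher and 0 lower, against 19.8% and 5.93% of all genes. Some also passed as higher without Dph1 KO replicate 2, where calls over all genes were more frequent too. Their median log2 fold change was 0.22, or 0.02 with the GC offset and 0.49 with library totals, against 0.30 for all genes with library totals. Lars, for leucine, came nearest to the threshold, at 33.7 and 28.1 CPM in Dph1 KO livers against 19.1 and 20.8 CPM in Control livers (log2 fold change 0.63, SE 0.20; edgeR adjusted p = 0.0586). Rars, for arginine, had 33.0 and 25.9 CPM in Dph1 KO livers against 19.7 and 19.1 CPM in Control livers (adjusted p = 0.0699 by edgeR). Eprs, which charges both glutamate and proline tRNA, had a log2 fold change of 0.50, and so had Dars, for aspartate. With the GC offset Eprs stood at 0.06 and Dars at 0.10, and Lars and Rars at 0.39 and 0.42, none of them called. In these 4 genes both Dph1 KO libraries lay above both Control libraries, as they did in 34.9% of all genes tested. Of the 8 complex genes, 4 lay above, 1 lay below and 3 overlapped. With library totals edgeR called these 4 genes higher. Lars was also called higher by edgeR with total exon reads (adjusted p = 0.0415) and junction reads (0.0174), and Rars with junction reads (0.00970). Mars, for methionine, had -0.35, Kars -0.20, Qars, for glutamine, -0.05 and Iars, for isoleucine, -0.05, none of them called. Mars shares 68 bases with Ddit3 on the opposite strand, so reads there are uncertain.

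The scaffold genes of the complex were set beside these enzymes. Aimp2 fell, with 17.5 and 23.0 CPM in Dph1 KO livers against 40.6 and 54.2 CPM in Control livers (log2 fold change -1.23, SE 0.23; edgeR adjusted p = 0.0126), and was called again with the GC offset (-0.84, adjusted p = 0.0130). It was not called without Control replicate 2 (edgeR adjusted p = 0.0613). Aimp1, at 0.50 on the log2 scale, was not called by edgeR (adjusted p = 0.0991). Eef1e1, the third scaffold gene, had a log2 fold change of -0.14 and was not called.

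Of the cytosolic enzymes outside the complex, the phenylalanine enzyme is built from 2 kinds of subunit. The alpha subunit gene Farsa had 28.9 and 40.6 CPM in Dph1 KO livers, against 50.5 and 59.0 CPM in Control livers. The beta subunit gene Farsb had 28.7 and 27.5 CPM in Dph1 KO livers, against 21.2 and 23.6 CPM in Control livers. Neither was called by edgeR (log2 fold changes -0.66 and 0.33, adjusted p = 0.0721 and 0.236), and Farsa was called with the GC offset (-0.62, adjusted p = 0.0450) and without Dph1 KO replicate 2. Within each library there were 1.01 and 1.47 Farsa reads per Farsb read in Dph1 KO livers, against 2.39 and 2.50 in Control livers. Hars, for histidine, had 28.9 and 31.4 CPM in Dph1 KO livers against 22.1 and 21.6 CPM in Control livers, and was called only with the GC offset (0.55, edgeR adjusted p = 0.0326) and with library totals as scaling (0.72, adjusted p = 0.0234). Sars, for serine, had -0.54 and Nars, for asparagine, 0.37, and neither was called. Aars, Cars, Gars and Wars, for alanine, cysteine, glycine and tryptophan, had log2 fold changes between -0.14 and 0.14. Aars shares 532 bases with Exosc6 on the same strand, so the source of reads there is uncertain.

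Synthetases fall into a pair of unrelated structural classes. Of the 10 cytosolic genes with a class I enzyme, counting Eprs there, 2 fell (Yars and Vars), and of the 10 with a class II enzyme, 1 rose (Tars). Both edgeR falls among mitochondrial genes, Vars2 and Ears2, were among the 9 of class I, and the 7 of class II had 0 called by edgeR, where an unadjusted p under 0.05 was reached by 0 higher genes and 2 lower ones; DESeq2 called 0. With 1 library left out, the median log2 fold change of these 7 was -0.52 to -0.13. Over all genes tested edgeR called 12.3%. An unadjusted p under 0.05 was reached by 2168 higher and 2381 lower genes of 13303, 34.2% in all. The difference between the classes was not tested.

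Among mitochondrial genes that were not called, Iars2, for isoleucine, had the highest value, with 66.3 and 55.8 CPM in Dph1 KO livers against 37.0 and 43.7 CPM in Control livers (log2 fold change 0.60, SE 0.21; edgeR adjusted p = 0.0758). Nars2, Rars2 and Wars2 had 0.49, 0.42 and 0.35 on the log2 scale. Intron reads were 10.1%, 22.1% and 38.7% of the reads of these 3 genes. With the GC offset Iars2 stood at 0.38 and Nars2, Rars2 and Wars2 at 0.14, 0.18 and 0.05, none of them called. Iars2 was called higher by edgeR with library totals (adjusted p = 0.00744), total exon reads (0.0484) and junction reads (0.0219). Cars2, for cysteine, and Fars2, for phenylalanine, had 0.17 and -0.35 on the log2 scale (edgeR adjusted p = 0.557 and 0.284). Intron reads were 24.2% of the Cars2 reads. Pars2, for proline, and Sars2, for serine, had the lowest values of those not called, at -0.72 and -0.70 (edgeR adjusted p = 0.122 and 0.0782). Pars2 stood at -0.29 without Control replicate 1 and at -1.06 without Control replicate 2. Sars2 stood at -0.03 with the GC offset, at -0.40 without Dph1 KO replicate 1 and at -0.47 without Control replicate 2, and was called lower without Dph1 KO replicate 2 (-1.01, edgeR adjusted p = 0.00329). Some mitochondrial genes, the called gene Ears2 among them, start close to a gene on the opposite strand. Hars2 lies 75 bases from the start of Hars, and Sars2 187 bases from that of Mrps12, a mitochondrial ribosomal protein gene. Ears2 lies 135 bases from the start of Ubfd1. Rars2 and Fars2 lie nearer still to such a start, at 16 and 54 bases. Iars2 shares 85 bases with Rab3gap2 on the opposite strand.

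For 13 amino acids both a cytosolic and a mitochondrial gene were in the set under 1 shared name, and their ratio within a library does not depend on how libraries are scaled. Tars reads per Tars2 read were 2.08 and 1.36 in Dph1 KO livers, against 0.578 and 0.644 in Control livers, and this was the 1 pair above 1 in both Dph1 KO and below 1 in both Control libraries. Tars2 itself, at -0.35 on the log2 scale, was not called by edgeR (adjusted p = 0.251). Yars reads per Yars2 read were 2.14 and 2.43 in Dph1 KO livers, against 4.69 and 6.15 in Control livers. The isoleucine pair also had lower ratios in Dph1 KO livers, with 0.621 and 0.667 Iars reads per Iars2 read in Dph1 KO and 1.04 and 0.973 in Control. The valine pair, both of whose genes fell, was at 2.28 and 2.29 in Dph1 KO and 1.89 and 1.87 in Control. In all, 7 of the 13 ratios did not overlap between genotypes, against 64.2% of all pairs of tested genes, so this count is near the background. With 2 libraries per genotype an exact two-sided permutation test of a ratio cannot give a p below 0.333.

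**Figure D4:**
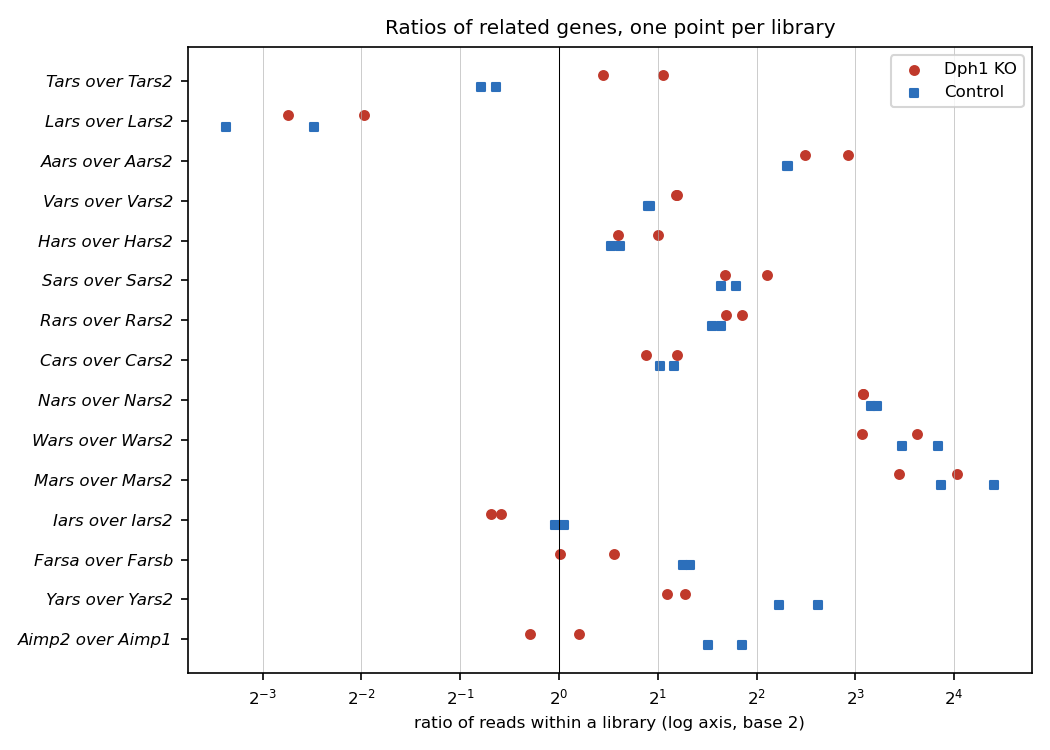
Ratio of reads of 2 related genes within each library, on a log axis of base 2, with Dph1 KO as circles and Control as squares; the vertical line marks equal reads. Tars over Tars2 lies above 1 in both Dph1 KO libraries and below 1 in both Control libraries, and Aimp2 over Aimp1 shows the widest gap in the other direction, at 0.813 and 1.15 in Dph1 KO and 2.84 and 3.62 in Control.

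The fold changes of the 36 genes followed the GC content of their transcripts, as those of other genes did. Spearman's correlation between log2 fold change and GC content was -0.74 over the 36 genes, which share the same 4 libraries, and -0.62 over 12487 protein-coding genes. In the fifth of protein-coding genes with the lowest GC content the median log2 fold change was 0.48, and in the fifth with the highest it was -0.56. Genes with 44.0% to 48.0% GC had a median of 0.29, and the 7 cytosolic and 6 mitochondrial genes in that class had medians of 0.50 and 0.38. With a smooth trend on GC content and length entered as an offset for each library, the correlation over the 36 genes was -0.27. In that fit Tars and Hars were higher and Farsa, Yars, Vars2 and Ears2 lower, while 5.12% of all genes tested there were called higher and 5.58% lower (10.7% in all). The part of GC content in the differences was not tested.

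**Figure D5:**
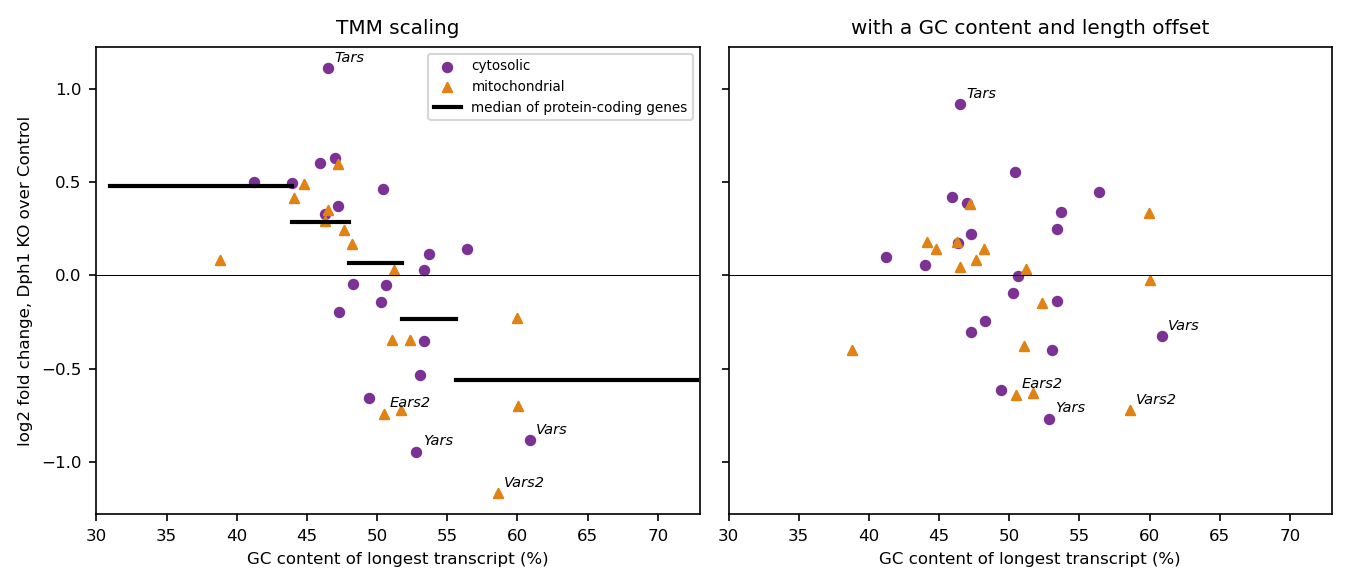
Log2 fold change of Dph1 KO over Control against the GC content (%) of the longest transcript, for cytosolic (circles) and mitochondrial (triangles) genes, with TMM scaling (left panel) and with a GC content and length offset (right panel). Black bars are medians of protein-coding genes in 5 classes of GC content. The slope seen on the left runs from 0.48 to -0.56 over the bars. It is weaker among the points on the right, where the offset removes the fitted trend.

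The choice of library and of scaling set how many of these genes were called. Without Dph1 KO replicate 2, edgeR called 6 cytosolic genes higher and 4 lower and 2 mitochondrial genes higher and 6 lower, while calling 18.9% of all genes higher and 20.4% lower (39.3% in all). Without Control replicate 2 it called 0 of the 36, and 3.82% of all genes. It called 9.74% without Dph1 KO replicate 1 and 5.43% without Control replicate 1, with 3 and 2 of the 36. Dph1 KO replicate 1 lay farther from the Control mean than replicate 2 in 29 of the 36 genes, in the direction of each gene's fold change, and in 75.7% of all genes tested. With library totals as the only scaling, the median log2 fold change of all genes moved up by 0.26, and 7 cytosolic genes and 1 mitochondrial gene were called higher and 2 and 1 lower, against 19.8% and 5.93% of all genes (25.7% in all). Gars, Iars, Kars, Qars and Aars2 changed sign under that scaling and were called under neither. DESeq2 called 15.6% of all genes (4.86% higher and 10.8% lower), RLE scaling 12.8%, no filter on low counts 11%, uniquely matched reads 12.3%, total exon reads 15.4%, junction reads 19.7%, and limma-trend 0.0226% on log2(TPM + 1) and 0.173% on log2(TPM + 0.1).

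Partner genes of tRNA charging were read from the same fit. Of 22 genes for scaffolds, tRNA end processing, editing and mitochondrial glutamine and formyl-methionine synthesis, 2 fell: Aimp2 and Aarsd1, which resembles the editing domain of the alanine enzyme (log2 fold change -0.69, SE 0.20; edgeR adjusted p = 0.0494, and 0.410 with the GC offset). Aarsd1 was also not called without Dph1 KO replicate 1, Control replicate 1 or Control replicate 2 (edgeR adjusted p from 0.0756 to 0.343). None of the 22 rose in edgeR, where 4.86% of all genes tested rose and 7.47% fell. With p left unadjusted 2 were higher and 6 lower, against 2168 higher and 2381 lower of the 13303 genes tested (34.2% in all). DESeq2 called 0 higher and 4 lower, against 4.86% and 10.8% of all genes. Library totals gave 3 higher and 1 lower, against 19.8% and 5.93%. The median of the 22 was 0.12, or -0.01 with the GC offset and 0.39 with library totals. It was 0.07 to 0.20 with 1 library left out. Of 11 mitochondrial translation factor genes, 1 rose: the initiation factor gene Mtif2, at 20.4 and 15.7 CPM in Dph1 KO livers against 10.4 and 9.90 CPM in Control livers (log2 fold change 0.83, SE 0.22; edgeR adjusted p = 0.0362). It was not called with the GC offset (adjusted p = 0.0536) or without either Control library (edgeR adjusted p = 0.153 and 0.222). None of the 11 fell in edgeR, where 1 was higher and 3 lower with p left unadjusted. DESeq2 called 1 higher and 1 lower. The shares over all genes given for the 22 apply here too. The median of the 11 was -0.08, and -0.14 to 0.05 with 1 library left out.

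Genes of the amino acid starvation response, of which many are ATF4 targets, were set beside the synthetases. Of 24 tested of 27 listed, 7 fell and 0 rose in edgeR, with 0 higher when p was left unadjusted and 0 called higher by DESeq2; 7.47% of all genes tested fell. Library totals called 1 of the 24 higher and 7 lower, against 19.8% and 5.93% of all genes. Which of the 24 passed changed with the library left out, and some then passed as higher. The median log2 fold change was -0.55, or -0.30 both with the GC offset and with library totals, and -0.90 to -0.38 with 1 library left out. The median GC content of the list was 53.6%, against 49.9% for all genes tested. Atf4 itself had 49.5 and 51.0 CPM in Dph1 KO livers and 57.5 and 53.7 CPM in Control livers and did not pass the test (-0.15 on the log2 scale, adjusted p = 0.615 in edgeR). Slc6a9, a glycine transporter gene, had 45.9 and 61.3 CPM in Dph1 KO livers against 128 and 182 CPM in Control livers (-1.53 on the log2 scale, SE 0.25; adjusted p = 0.00771 in edgeR). The translation inhibitor gene Eif4ebp1 had 42.6 and 64.4 CPM in Dph1 KO livers against 99.2 and 111 CPM in Control livers (log2 fold change -0.97, SE 0.24; edgeR adjusted p = 0.0323). It was not called without Control replicate 1 (0.0585) or Control replicate 2 (0.161). Slc7a5, Vldlr, Trib3 and Atf5 also fell, and Atf5 was not called without Control replicate 1 or 2 (edgeR adjusted p = 0.110 and 0.194). With the GC offset 5 of the 24 were lower, against 5.58% of all genes tested there. Atf5 was not among the 5 (edgeR adjusted p = 0.259). With each library left out in turn, the median of the list stayed negative. Of the 13 synthetase genes listed here as linked to ATF4, 1 rose (Tars), 2 fell (Yars and Vars) and 10 were not called, with a median log2 fold change of 0.03. In this fit 4.86% of all genes tested rose and 7.47% fell. With 1 library left out, the median of the 13 was 0.03 to 0.05. The calls of Tars, Yars and Vars were lost without Control replicate 2, as given above.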

How the data were processed

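RNA-seq tables of 4 liver libraries were used. Per the file headers, the authors gave read counts per gene, exon, exon junction and intron, and TPM and RPKM values; the RPKM and the deposited fractions of unique and intron reads were left out. The remaining deposited columns are annotation. Per the submitters' processing notes the build was GRCm38 (mm10). Of the aligner and the counter nothing is given in the sources used here. Between 89.3% and 90.2% of gene reads matched a single place.

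Total gene reads were tested with edgeR 4.0.16 in R 4.3.3: filterByExpr by genotype, TMM, quasi-likelihood test with genotype as the only term, Benjamini-Hochberg over 13303 genes, threshold 0.05. "Rose", "fell" and "called" refer to this test. The SE is the log2 fold change divided by the square root of F. The biological coefficient of variation was 18.5%. Summed over the 36 genes, reads differed between libraries of 1 genotype by more than sampling noise, so each library was kept as its own sample. The chi-square per degree of freedom was 22.4 in Dph1 KO and 19.5 in Control, with library totals as the only scaling. Lars2, with 3642 and 2091 reads in the Control libraries, weighs heavily in the Control value. The GC content and length offset is a smooth trend per library (mgcv 1.9.3, basis size 6). GC content is that of the longest GENCODE M21 transcript, found for 98.8% of protein-coding genes, and length is the deposited exon length. Alternatives were DESeq2 1.42.0, limma-trend (limma 3.58.1) on the deposited TPM as log2(TPM + 1) and log2(TPM + 0.1), other scalings, filters and read classes, and each library left out. The fits were tested on simulated data. Junction reads as counts were added after the data were seen.

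The 36 genes, the lists and the rule for named genes (all 36, Dph1, Atf4 and up to 6 called genes of each partner list; a further gene of the rule is not reported here) were chosen with earlier results of these data known. Named beyond the rule, after their values were seen, were Aimp1, Eef1e1, the 4 called markers and the genes that overlap or start near Yars, Mars, Aars, Iars2, Sars2 and Ears2 (C77080, Ddit3, Exosc6, Rab3gap2, Mrps12 and Ubfd1). Listed names Dtd2, Gatb, Mtg2 and Adgre1 were matched by gene ID.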

Additional observations from a re-analysis of the deposited data

How the results depend on the processing

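Over all genes, 646 were called higher and 994 lower. With library totals as the only scaling 2634 were called higher; limma-trend called 2 higher and 1 lower on log2(TPM + 1), and 13 and 10 on log2(TPM + 0.1). The leave-one-out fits called 180 to 2599 higher and 346 to 2806 lower. Of the cytosolic genes, 1 higher and 2 lower in edgeR, the GC content and length offset and total exon reads each called 2 higher, library totals 7 higher, junction reads 3 higher, and both limma-trend fits 0 higher and 0 lower. Leaving out 1 library gave 0 to 6 higher and 0 to 4 lower. Of the mitochondrial genes, 0 higher and 2 lower in edgeR, library totals gave 1 higher and 1 lower, total exon reads 1 higher, junction reads 1 higher and 3 lower, both limma-trend fits 0, and leaving out 1 library 0 to 2 higher and 0 to 6 lower. No called gene of the 36 changed sign in any fit. DESeq2, RLE scaling, no filter on low counts and uniquely matched reads left all 36 on the same side of the threshold. The causes were not tested. In the leave-one-out fits the single library of a genotype takes its spread from the other genotype. No paired analysis was possible because the labels give no replicate numbers and nothing links a Dph1 KO to a Control library. The widest errors were those of Wars2 (SE 0.31), with 47 reads in 1 library, Pars2 (0.30) and Lars2 (0.29), of which Lars2 is among the genes with the most reads.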
